A study of Mus musculus with 8 samples.

Results

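The natriuretic peptide system was followed in newborn mouse ventricles through the 7 genes of its peptides, receptors and activating protease, *Nppa*, *Nppb*, *Nppc*, *Npr1*, *Npr2*, *Npr3* and *Corin*. They were taken by name from a table of 40690 genes, in which each has 1 entry, and all 7 had enough counts to be tested. As background, cardiomyocytes make atrial natriuretic peptide (ANP, from *Nppa*) and B-type natriuretic peptide (BNP, from *Nppb*) and release them when the heart wall is stretched, while C-type natriuretic peptide (CNP, from *Nppc*) comes mainly from endothelium. ANP and BNP bind the guanylyl cyclase receptor encoded by *Npr1* and CNP the one encoded by *Npr2*, and both receptors make the messenger cyclic GMP. The receptor encoded by *Npr3* has no cyclase domain and clears the peptides, and corin is a protease of the cardiomyocyte surface that cuts the ANP precursor into the hormone.

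Polyadenylated RNA had been sequenced from ventricles at postnatal day 1, with 1 library for each of 4 NAE1CKO and 4 littermate control (CTL) hearts. In NAE1CKO mice (genotype label knockout, nae_ko in the count columns) a floxed *Nae1* was deleted by Cre recombinase under the αMHC promoter. This promoter acts in cardiomyocytes, so that other cells of the ventricle keep the gene. CTL mice carry the genotype label wt (nae_wt in the count columns), with no further detail of their alleles in the sources. The colony was on C57BL/6J. *Nae1* encodes the regulatory subunit of the enzyme that activates the ubiquitin-like protein NEDD8, and the comparison asks what loss of neddylation in cardiomyocytes does to the transcripts of the newborn ventricle. The labels also carry a cell line tag (cardiomyocyte) and a cell type tag (neonatal), but the libraries were read as ventricle tissue, since markers of endothelium, fibroblasts and macrophages were detected beside those of cardiomyocytes.

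Libraries held from 16304420 to 18593509 counts in NAE1CKO and from 13932821 to 18056322 in CTL. Values are CPM, the counts of a gene relative to the library's total, after TMM scaling, which adjusts for composition. Tests are edgeR's quasi-likelihood test over the 13622 genes that passed a filter on low counts, with p-values adjusted over all of them and a threshold of 0.05. *Nae1* averaged 11.97 ± 1.24 CPM in NAE1CKO and 23.4 ± 0.771 CPM in CTL (SD, n = 4 each), a log2 fold change of −0.96 (adjusted p = 7.18e-06). In 1 CTL library, WT-453-5, the noncoding gene *Gm42418* took 12.8% of the counts, against 3.09% to 4.62% in the others. Libraries are called by their titles, and per-library values follow the order KO-443-3, KO-443-5, KO-453-6, KO-453-7 for NAE1CKO and WT-443-7, WT-443-8, WT-453-3, WT-453-5 for CTL. The sources do not say what the first number in a title stands for, and libraries that share it are called title-443 and title-453 libraries.

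*Nppa* and *Nppb* are neighbours on chromosome 4, on the same strand with 13.5 kb between them. In GRCm38 (GENCODE M21), *Nppb* (ENSMUSG00000029019) lies at chr4:147985788-147987205 and *Nppa* (ENSMUSG00000041616) at chr4:148000722-148002079. Their start regions are shown because both genes were higher in NAE1CKO and by different amounts. RefSeq (GRCm38.p6) gave a window from 250 bases before to 50 bases after the start for 7 of 7 genes. The windows were searched on both strands for 7 motifs of factors known to act on natriuretic peptide genes. These were the NKX2-5 site TNAAGTG, the GATA site AGATAA, the T-box half-site GGTGTGA, the MCAT site CATTCC of TEAD factors, the AP-1 site TGANTCA, the cyclic AMP response half-site TGACGT and the CArG box of SRF. Other forms of these sites were not searched, so a window without a match may still hold one. The 250 bases before the *Nppa* start, chr4:148000472-148000721 on the plus strand, follow with the matches in capitals, first a T-box half-site read on the opposite strand and then an NKX2-5 site.
*Nppa*: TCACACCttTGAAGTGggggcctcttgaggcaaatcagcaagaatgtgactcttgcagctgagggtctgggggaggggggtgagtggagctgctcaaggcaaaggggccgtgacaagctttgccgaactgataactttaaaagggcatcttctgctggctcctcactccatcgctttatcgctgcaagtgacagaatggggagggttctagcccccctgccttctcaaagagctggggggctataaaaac
The *Nppb* window held an MCAT site read on the opposite strand and a GATA site, the capitals in the 30 bases at chr4:147985793-147985822 on the plus strand.
*Nppb*: caGGAATGcagctgataaatcagAGATAAc
Counted from the RefSeq start, where −1 is the base before it, the *Nppa* matches lie at −250 to −244 and −241 to −235. The *Nppb* matches lie at −105 to −100 and −84 to −79, and no match overlapped another. By GENCODE, *Nppb* starts 112 bases before the RefSeq start, so the *Nppb* stretch is already in the transcript there. Matches of this kind are frequent: of 32817 mouse windows, 3.98% held the T-box half-site, 11.55% the NKX2-5 site, 14.66% the MCAT site and 11.18% the GATA site. The AP-1 site, the cyclic AMP half-site and the CArG box, in 7.81%, 7.51% and 1.63% of windows, were in neither gene's window, and the windows of the other 5 genes held none of the 7 motifs.

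Of the 7 genes, 5 were higher in NAE1CKO ventricles and 0 were lower. Over all genes tested 18.6% were higher and 17.6% were lower, and the median log2 fold change was 0.64 for the 7 genes and −0.00074 for all. The 5 that rose were all 3 peptide genes, the clearance receptor *Npr3* and *Corin*. In each of these 5 the lowest NAE1CKO library lay above the highest CTL library, as for 18.6% of all genes. *Nppc* passed the filter on low counts only through its NAE1CKO libraries, where it is high, so it adds no independent support to these counts. *Nppa*, *Nppb*, *Nppc* and *Npr3* also passed 1.5-fold, which 7.31% of all genes did in this direction. *Npr3* lay close to that limit and was under it, though still past the test, without KO-443-5, WT-453-3 or WT-453-5 (log2 fold changes of 0.57, 0.56 and 0.58), which left 3 genes past 1.5-fold. The cyclase receptors *Npr1* and *Npr2* did not pass the test.

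**Figure D1:**
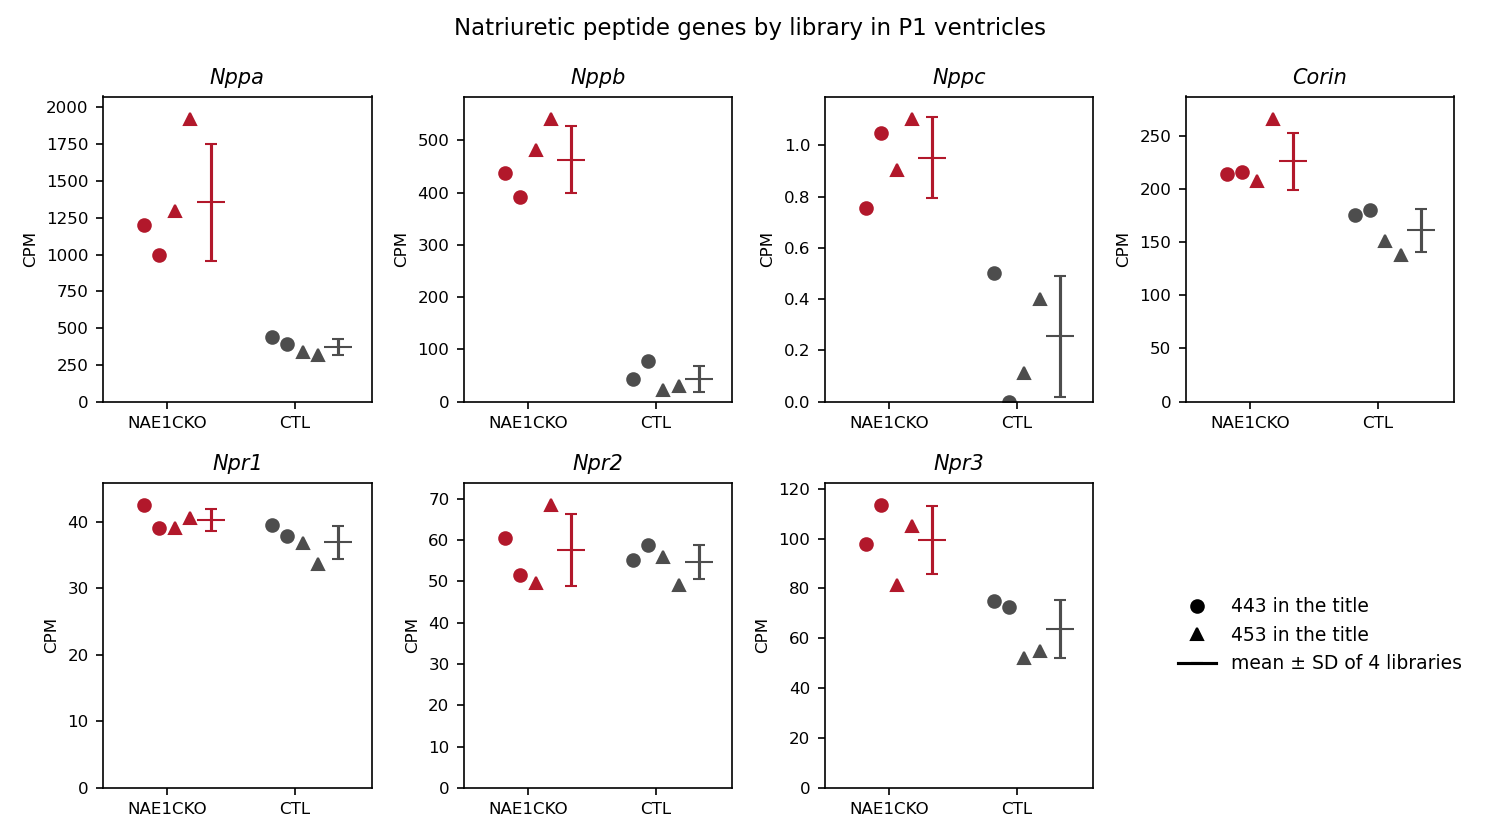
CPM (vertical axis, from 0) of the 7 genes in each of the 4 NAE1CKO (red) and 4 CTL (grey) libraries, with the mean and SD beside the points and the number in the title shown by the symbol. The groups are apart for *Nppa*, *Nppb*, *Nppc*, *Corin* and *Npr3* and overlap for *Npr1* and *Npr2*, and *Nppb* ranged from 391 to 540 CPM in NAE1CKO against 22.9 to 77.7 CPM in CTL.

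*Nppb*, the gene of BNP, had the largest change of the 7 genes. It had 437, 391, 482 and 540 CPM in the NAE1CKO libraries, against 43.9, 77.7, 22.9 and 29.8 CPM in the CTL libraries. The lowest NAE1CKO library was 5.03 times the highest CTL library, and the spread relative to the mean (coefficient of variation) was 13.8% in NAE1CKO and 56.0% in CTL. The means were 463 ± 63.9 CPM in NAE1CKO and 43.6 ± 24.4 CPM in CTL (SD, n = 4 each), a log2 fold change of 3.41 ± 0.40 (SE, adjusted p = 0.000753, edgeR), or 10.6-fold.

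*Nppa*, the gene of ANP, is expressed in fetal ventricles and becomes mostly atrial after birth. It had 1198, 1001, 1299 and 1921 CPM in NAE1CKO, against 441, 391, 337 and 318 CPM in CTL. The coefficient of variation was 29.3% in NAE1CKO and 15.0% in CTL, the reverse of the order for *Nppb*, and KO-453-7 was the highest library. The means were 1355 ± 397 CPM in NAE1CKO and 372 ± 55.8 CPM in CTL (SD, n = 4 each), a log2 fold change of 1.87 ± 0.21 (SE, adjusted p = 0.000334, edgeR), or 3.64-fold. *Nppa* shares 532 exon bases with *Gm13054*, an antisense gene. How the counting treated strand is not stated. *Gm13054* had 112 counts over the 8 libraries beside 121039 for *Nppa*, which does not show whether reads of the shared bases were counted.

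*Nppc* (ENSMUSG00000026241, chr1:86666291-86670571, minus strand), the gene of CNP, was close to the limit of detection. It had 14, 20, 15 and 20 counts in NAE1CKO, against 8, 0, 2 and 5 counts in CTL, so that the groups did not overlap but rest on few reads. Only the NAE1CKO libraries carried *Nppc* past the filter on low counts, so its call and the gap between the groups are not independent of that filter. In CPM these were 0.952 ± 0.157 in NAE1CKO and 0.255 ± 0.237 in CTL (SD, n = 4 each), and the log2 fold change was 1.94 (standard error 0.52, adjusted p = 0.0114, edgeR). Without WT-443-7, the CTL library with the most *Nppc* counts, it was 2.59. The call was lost in the title-443 libraries alone, where the log2 fold change was 1.83 (adjusted p = 0.0874, edgeR), and *Nppc* drops out under a filter of 1 CPM in 4 libraries.

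Together *Nppa* and *Nppb* took a small but larger share of all counts in NAE1CKO. The share was 0.169%, 0.143%, 0.182% and 0.255% in NAE1CKO, against 0.0490%, 0.0471%, 0.0352% and 0.0311% in CTL. Every NAE1CKO library was above every CTL library, with a 4.59-fold difference of the log means. *Nppb* rose more than *Nppa*. The ratio of *Nppb* to *Nppa* counts was 0.365, 0.390, 0.371 and 0.281 in NAE1CKO, against 0.0994, 0.199, 0.0680 and 0.0937 in CTL, and the groups did not overlap. The means were 0.352 ± 0.0483 in NAE1CKO and 0.115 ± 0.0575 in CTL (SD, n = 4 each), a log2 difference of 1.72, or 3.30-fold (two-sided exact permutation test, p = 0.0286, adjusted p = 0.0286 over 4 ratios and shares). This is the smallest p that the 70 arrangements of 4 against 4 libraries allow, and the share and the ratios below reached it too.

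*Corin* (ENSMUSG00000005220, chr5:72300025-72504473, minus strand) rose less than the precursor that its product cuts. It had 214, 216, 207 and 265 CPM in NAE1CKO, against 176, 180, 151 and 138 CPM in CTL. The 3 lower NAE1CKO libraries were close together and KO-453-7 stood above them, as it did for *Nppa*. The means were 226 ± 26.8 CPM in NAE1CKO and 161 ± 20.1 CPM in CTL (SD, n = 4 each), a log2 fold change of 0.49 ± 0.10 (SE, adjusted p = 0.00289, edgeR). Per *Nppa* count there was less *Corin*, with 0.173 ± 0.0331 *Corin* counts in NAE1CKO and 0.435 ± 0.0273 in CTL (SD, n = 4 each). The log2 difference of this ratio was −1.35 (two-sided exact permutation test, p = 0.0286), and its values ran from 0.138 to 0.216 in NAE1CKO against 0.398 to 0.461 in CTL. *Corin* shares 147 exon bases with the antisense gene *Gm20647*, which had 11 counts in all.

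**Figure D2:**
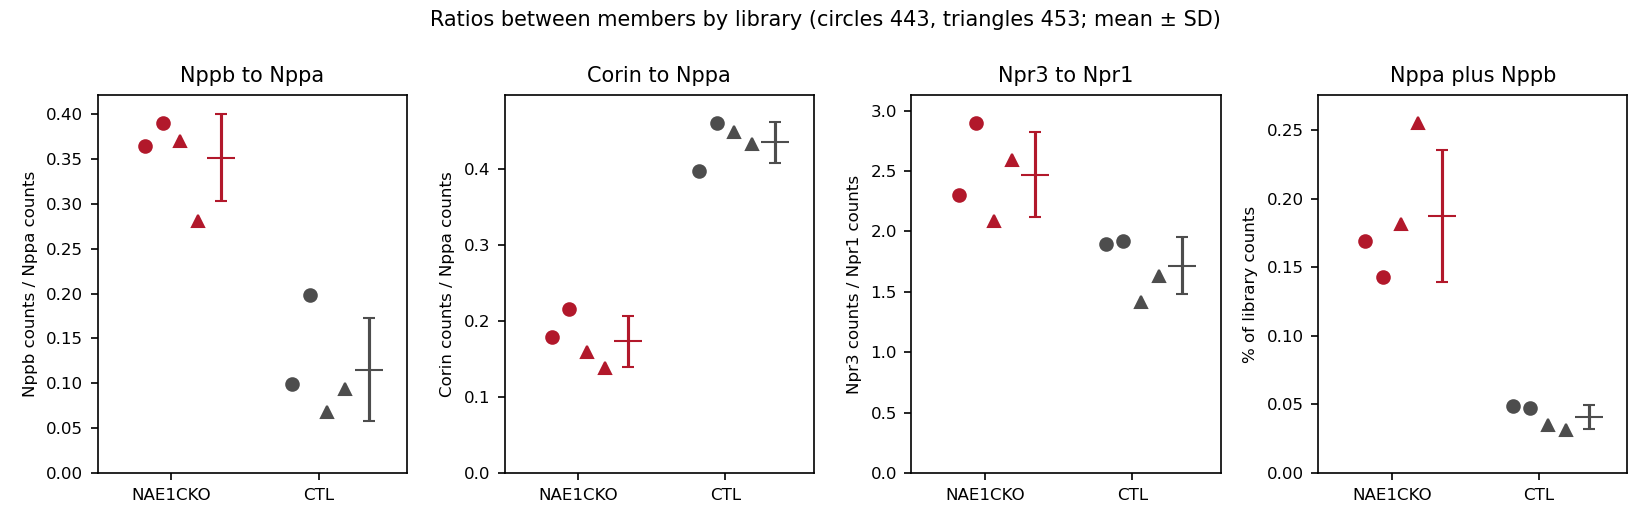
Ratios between counts of members, and the percent of library counts taken by *Nppa* and *Nppb* together (vertical axes, from 0), in each of 4 NAE1CKO (red) and 4 CTL (grey) libraries, with circles for title-443 and triangles for title-453 libraries and bars for the mean and SD. In all 4 panels the groups are apart, and only the *Corin* to *Nppa* ratio is lower in NAE1CKO, at 0.173 ± 0.0331 against 0.435 ± 0.0273 in CTL.

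Among the receptors, *Npr3* (ENSMUSG00000022206, chr15:11839896-11907287, minus strand), which clears the peptides, was the one that passed the test. It had 97.9, 113, 81.5 and 105 CPM in NAE1CKO, against 74.8, 72.7, 52.3 and 54.9 CPM in CTL. The gap was narrow, with the lowest NAE1CKO library 1.09 times the highest CTL library. The means were 99.4 ± 13.5 CPM in NAE1CKO and 63.7 ± 11.7 CPM in CTL (SD, n = 4 each), a log2 fold change of 0.64 ± 0.14 (SE, adjusted p = 0.00605, edgeR). *Npr3* shares 321 exon bases with *Gm5144*, which was not analysed here.

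*Npr1* (ENSMUSG00000027931, chr3:90450591-90465866, minus strand), the receptor of ANP and BNP, had 42.5, 39.1, 39.0 and 40.5 CPM in NAE1CKO, against 39.5, 37.8, 36.9 and 33.6 CPM in CTL. The groups overlapped, and the log2 fold change was 0.12 (adjusted p = 0.160, edgeR), with a range of 2 standard errors from −0.01 to 0.25. *Npr2* (ENSMUSG00000028469, chr4:43631935-43651244, plus strand), the receptor of CNP, had 60.5, 51.5, 49.6 and 68.4 CPM in NAE1CKO, against 55.1, 58.7, 55.8 and 49.1 CPM in CTL. These groups overlapped as well, and the log2 fold change was 0.07 (adjusted p = 0.608, edgeR), with a range of 2 standard errors from −0.13 to 0.27. Its sign turned without KO-453-7 and in the title-443 libraries alone, to −0.02 in each. Clearance receptor transcripts were higher relative to those of the cyclase receptor *Npr1*, with an *Npr3* to *Npr1* count ratio of 2.30, 2.90, 2.09 and 2.59 in NAE1CKO, against 1.89, 1.92, 1.42 and 1.63 in CTL. The log2 difference was 0.52, or 1.44-fold (two-sided exact permutation test, p = 0.0286). *Npr1* and *Npr2* share 559 and 266 exon bases with the antisense genes *Gm16048* and *Gm12473*, which had 3 and 433 counts in all, beside 7596 for *Npr2*.

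Levels of different genes were compared as CPM per kilobase of exon, with exon bases shared with other genes left in the length. In NAE1CKO the order was *Nppa* at 1566 ± 459, *Nppb* at 592 ± 81.8, *Corin* at 41.8 ± 4.97, *Npr2* at 12.3 ± 1.86, *Npr3* at 10.6 ± 1.44, *Npr1* at 8.42 ± 0.338 and *Nppc* at 0.914 ± 0.151 CPM per kilobase (SD, n = 4). Neighbours in this order were apart except for *Npr2* and *Npr3*, and *Npr3* and *Npr1*, whose ranges overlapped. In CTL the order was *Nppa* at 430 ± 64.6, *Nppb* at 55.8 ± 31.2, *Corin* at 29.9 ± 3.73, *Npr2* at 11.7 ± 0.869, *Npr1* at 7.72 ± 0.514, *Npr3* at 6.78 ± 1.25 and *Nppc* at 0.244 ± 0.227 CPM per kilobase (SD, n = 4). Here *Nppb* and *Corin*, and *Npr1* and *Npr3*, overlapped. Among 13608 genes ranked by this level within a library, *Nppa* stood at ranks 15 to 24 in NAE1CKO, against 60 to 84 in CTL. *Nppb* stood at ranks 42 to 57 in NAE1CKO, against 315 to 1219 in CTL.

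The fold changes of *Nppb*, *Nppa*, *Corin* and *Npr3* were larger between title-453 libraries than between title-443 libraries, 2 against 2 in each case. This was not particular to them. The targeted *Nae1* had a log2 fold change of −1.14 in title-453 and −0.81 in title-443 libraries. *Npr1* (0.17 and 0.08) and *Npr2* (0.16 and −0.02) leaned the same way. WT-453-5, the library with the high *Gm42418* share, is among the title-453 CTL libraries. For *Nppb* the log2 fold change was 4.28 in title-453 libraries, with means of 511 CPM in NAE1CKO and 26.3 CPM in CTL, and 2.76 in title-443 libraries, with means of 414 CPM in NAE1CKO and 60.8 CPM in CTL. For *Nppa* the title-453 means were 1610 CPM in NAE1CKO and 327 CPM in CTL, and the title-443 means 1099 CPM in NAE1CKO and 416 CPM in CTL. *Corin* had a log2 fold change of 0.70 in title-453 and 0.27 in title-443 libraries, and *Npr3* 0.79 in title-453 and 0.52 in title-443 libraries. For *Nppc* the difference of the log2 fold changes had no settled sign, at 0.24 in edgeR and −0.71 in limma-voom. For *Nppb* and *Nppa* the NAE1CKO mean was higher and the CTL mean lower in title-453 than in title-443 libraries. A test of this difference across all genes gave unadjusted p-values of 0.0174 for *Nppb*, 0.0180 for *Nppa* and 0.0124 for *Corin* in edgeR, but adjusted p-values of 0.444, 0.446 and 0.407. So 3 of the 7 genes were under an unadjusted 0.05, as were 9.59% of all genes, and 0 of 13622 genes passed after adjustment in edgeR, with 1307 under an unadjusted 0.05 (0 and 1277 in limma-voom). The difference between the numbers did not pass the test for any of the 7 genes. The 5 genes that rose had positive log2 fold changes within each number.

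**Figure D3:**
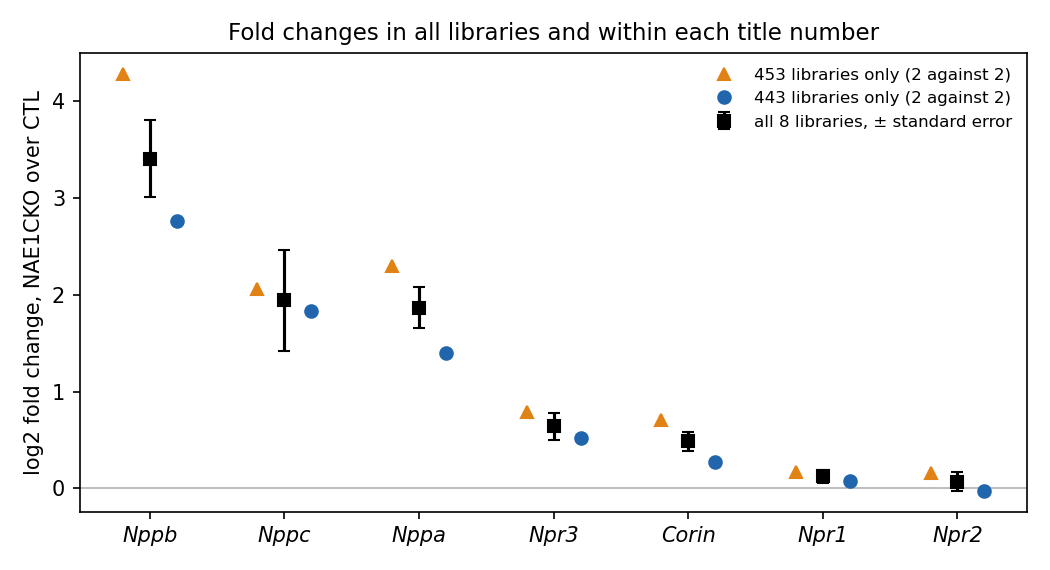
Log2 fold change, NAE1CKO over CTL (vertical axis), of the 7 genes in title-453 libraries (triangles), all 8 libraries (squares, with standard error) and title-443 libraries (circles), the first and last from 2 against 2 libraries and drawn without error. *Nppb* stands at 4.28, 3.41 and 2.76 in this order, and *Npr1* and *Npr2* lie near 0 throughout.

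Genes farther from the *Nppb* and *Nppa* pair changed less than the pair or not detectably. Within 100 kb on either side lie 14 annotated genes, of which 10 were tested. Of these 6 were higher and 0 were lower, beside 18.6% and 17.6% of all genes tested. The 6 include the pair itself, around which the window was drawn, so this count does not stand for the region. The third was *Gm13054*, antisense to *Nppa*, at 1.35 CPM in NAE1CKO and 0.206 CPM in CTL, with a log2 fold change of 2.66 (adjusted p = 0.000686, edgeR). It had 12 to 37 counts in NAE1CKO libraries and 2 to 5 in CTL libraries. Only the NAE1CKO libraries carried it past the filter on low counts, so its call is not independent of that filter. Its reads cannot be told from those of *Nppa* without strand. The others that rose did so by far less: *Plod1*, a lysyl hydroxylase of collagen, by 0.28 (adjusted p = 0.00430), *2510039O18Rik* by 0.29 (0.00368) and *Agtrap*, which binds the angiotensin II receptor, by 0.31 (0.00197) on the log2 scale (edgeR). *Clcn6*, which begins 2.18 kb beyond *Nppa*, had a log2 fold change of 0.04 (adjusted p = 0.734). The noncoding *Gm13202* (−0.04) and the mitochondrial fusion gene *Mfn2* (−0.18, adjusted p = 0.0504) did not pass either.

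**Figure D4:**
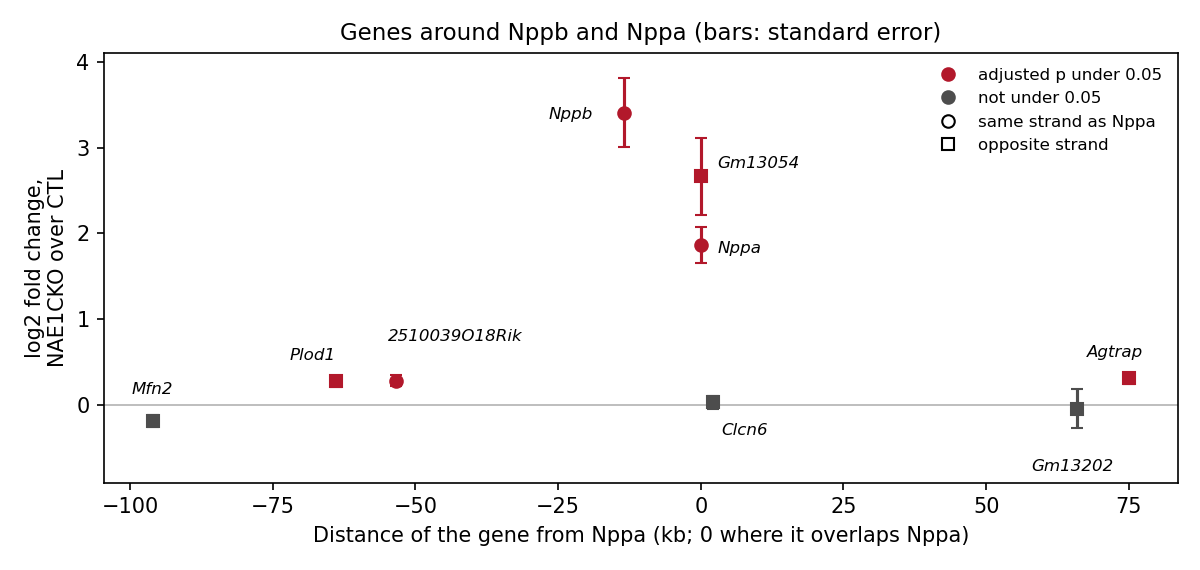
Log2 fold change, NAE1CKO over CTL, with standard error (vertical axis), of the tested genes described above by their distance from *Nppa* in kb (horizontal axis), with red for an adjusted p under 0.05 and circles for the strand of *Nppa*. *Nppb* at 3.41, *Gm13054* at 2.66 and *Nppa* at 1.87 stand above the rest, which lie between −0.18 and 0.31. *Gm13054* passed the filter on low counts only through its NAE1CKO libraries.

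Over the 8 libraries, *Nppa* and *Nppb* each had genes closer to them than the other of the pair. The distance used takes in the size of the fold change, so genes with unlike fold changes, such as these 2, are set apart by it. The measure was the root mean square difference of log2 CPM, each gene centred on its own mean, and it is a description without a test. The 5 genes most like *Nppa* were the glutathione transferases *Gstm1* (0.0743) and *Gsta4* (0.0864), the monoamine oxidase *Maoa* (0.155), *Fstl3*, which encodes an activin-binding protein (0.170), and *Gadd45g*, a stress-inducible gene (0.180). The 5 most like *Nppb* were *Ankrd1*, a cardiac ankyrin repeat protein (0.285), *AW551984* (0.370), the muscle ubiquitin ligase gene *Trim54* (0.405), *Ctgf*, a secreted matrix-associated protein (0.408), and the embryonic myosin heavy chain *Myh3* (0.488). *Nppa* and *Nppb* differed from each other by 0.955. By the same measure *Nppa* was closer to *Npr1* (0.891) and *Npr2* (0.908), which did not pass the test, while *Nppa* was the member closest to *Nppb*. The distance between *Nppa* and *Nppb* therefore does not show that they varied apart beyond their unlike fold changes.

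Pathway partners of the peptides were called in both directions. Of 22 partners that process or degrade the peptides or make, break down or respond to cyclic GMP, 20 were tested, 3 were higher, 6 were lower and 11 did not pass, with a median log2 fold change of −0.11. The shares were 15.0% higher and 30.0% lower, against 18.6% and 17.6% of all genes tested. Higher were *Gucy1b3*, the beta subunit of the nitric oxide-sensitive guanylyl cyclase (52.1 CPM in NAE1CKO and 35.5 CPM in CTL, log2 fold change 0.55), *Vasp*, a substrate of cyclic GMP-dependent protein kinase (131 CPM in NAE1CKO and 98.5 CPM in CTL, 0.41), and *Prkg1*, that kinase (19.99 CPM in NAE1CKO and 15.6 CPM in CTL, 0.35). The 3 lower with the smallest adjusted p were *Pln*, phospholamban, which restrains the calcium pump of the sarcoplasmic reticulum (2007 CPM in NAE1CKO and 3505 CPM in CTL, −0.80), *Rgs2*, a brake on Gq signalling that this kinase activates (20.2 CPM in NAE1CKO and 38.4 CPM in CTL, −0.93), and *Pde2a*, a phosphodiesterase that cyclic GMP stimulates (57.4 CPM in NAE1CKO and 79.4 CPM in CTL, −0.47). The adjusted p of these 6 ran from 1.82e-06 for *Pln* to 0.00426 for *Prkg1* (edgeR). Also lower were *Pcsk6*, whose protease activates corin (−0.60, adjusted p = 0.00467), *Pde3a* (−0.53, 0.0160) and *Pde1c* (−0.24, 0.00362). *Furin*, which cuts the BNP and CNP precursors, had 287 CPM in NAE1CKO and 291 CPM in CTL (adjusted p = 0.869). The peptide-degrading *Mme* (neprilysin, adjusted p = 0.566) and *Ide* (0.837), and the cyclic GMP phosphodiesterases *Pde5a* (0.386) and *Pde9a* (0.515), did not pass either.

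Of 22 genes known to regulate *Nppa* and *Nppb* transcription, all tested, 5 were higher, 6 were lower and 11 did not pass, with a median of −0.06. The shares, 22.7% higher and 27.3% lower, were near the 18.6% and 17.6% of all genes, so the counts are no result about this list, and the genes are given for their own values. The highest-ranked increases were in *Tead1*, whose protein binds MCAT sites (396 CPM in NAE1CKO and 314 CPM in CTL, log2 fold change 0.33, adjusted p = 0.00129), *Fos*, a part of AP-1 (7.67 CPM in NAE1CKO and 2.43 CPM in CTL, 1.66, adjusted p = 0.00271), and *Srf*, whose protein binds CArG boxes (294 CPM in NAE1CKO and 241 CPM in CTL, 0.29, adjusted p = 0.00368). *Gata4* (0.26, adjusted p = 0.00575) and *Mkl1* (0.28, 0.00686), an SRF coactivator, were higher too. The decreases with the smallest adjusted p were in *Hey1* (7.05 CPM in NAE1CKO and 11.5 CPM in CTL, −0.71), *Tbx3* (11.8 CPM in NAE1CKO and 19.4 CPM in CTL, −0.72) and *Hey2* (34.6 CPM in NAE1CKO and 98.3 CPM in CTL, −1.50). These encode transcriptional repressors of the heart, and *Hey2* is enriched in compact ventricular myocardium. *Nkx2-5*, which binds the site shown for *Nppa*, had 175 CPM in NAE1CKO and 192 CPM in CTL (adjusted p = 0.206), *Gata6* 215 CPM in NAE1CKO and 266 CPM in CTL (0.0534) and *Tbx20* 540 CPM in NAE1CKO and 505 CPM in CTL (0.316), none of which passed. *Tbx5*, a T-box activator of *Nppa*, was lower (45.8 CPM in NAE1CKO and 60.8 CPM in CTL, −0.41, adjusted p = 0.00474).

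Most of the load-responsive genes listed were higher. Of 15, a set known to respond to stretch or pressure, 11 were higher, 0 were lower and 4 did not pass, with a median of 1.32. The share higher was 73.3% against 18.6% of all genes. The list was chosen with earlier results of these data known, so this contrast is not an independent result. The smallest adjusted p were those of *Xirp2*, whose product binds actin at intercalated discs (171 CPM in NAE1CKO and 24.7 CPM in CTL, log2 fold change 2.79), *Edn1*, the gene of endothelin-1 (25.1 CPM in NAE1CKO and 5.26 CPM in CTL, 2.25), and the tropomyosin *Tpm2* (185 CPM in NAE1CKO and 96.0 CPM in CTL, 0.94). *Myh7*, the fetal ventricular myosin, had 5114 CPM in NAE1CKO and 1975 CPM in CTL but varied between libraries (1.37, adjusted p = 0.0757, edgeR), and the skeletal actin *Acta1* had 82.8 CPM in NAE1CKO and 71.7 CPM in CTL (0.21, adjusted p = 0.455).

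**Figure D5:**
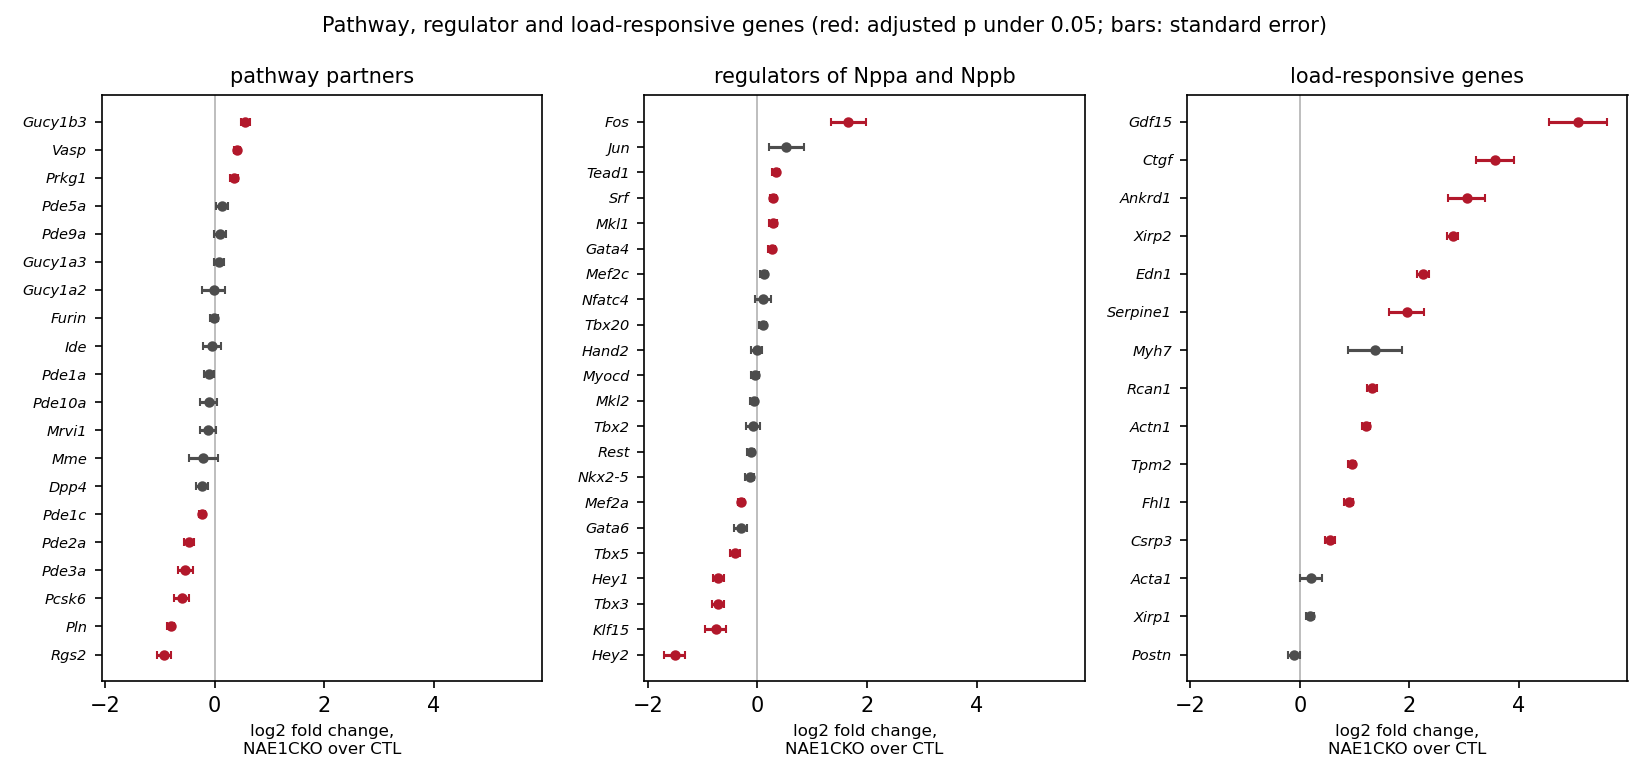
Log2 fold change, NAE1CKO over CTL, with standard error (horizontal axis), of the tested pathway partners, regulators of *Nppa* and *Nppb*, and load-responsive genes (rows), with red for an adjusted p under 0.05. Partners and regulators lie on both sides of 0, with 3 higher and 6 lower, and 5 higher and 6 lower, while 11 of the 15 load-responsive genes lie above 0 in red and none below. The lists were chosen with earlier results of these data known.

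Ventricle holds several cell types. In such bulk samples fewer cells of a type, less RNA per cell and lower expression of the marker genes themselves cannot be told apart. Of 9 cardiomyocyte markers, 0 were higher, 6 were lower and 3 did not pass. Beside this and the marker counts that follow stand 18.6% higher and 17.6% lower over all genes tested. The summed level of the 9 was 47409 to 50874 CPM in NAE1CKO, against 61814 to 74537 CPM in CTL. *Myh6* (17016 CPM in NAE1CKO and 26420 CPM in CTL) made up the largest part of that difference. *Pln*, *Ryr2*, *Tnni3*, *Myl2* and *Myl3* were lower too, whereas *Ttn* (−0.35), *Tnnt2* (−0.11) and *Actn2* (0.09) did not pass. *Nppa*, *Nppb* and *Corin*, which cardiomyocytes express, moved the other way from the 6 lower markers. *Nppa* and *Nppb* are also abundant in atria, and *Nppa* in trabecular and conduction cells. Of 13 atrial markers, 2 were higher and 2 were lower, with sums of 2327 to 3014 CPM in NAE1CKO and 1993 to 2471 CPM in CTL, which overlap. *Pam*, at 1479 CPM in NAE1CKO and 1495 CPM in CTL, made up the largest part of these sums. The atrial light chain *Myl4* was higher (log2 fold change 1.74, adjusted p = 7.21e-07), whereas *Myl7* (−0.21, adjusted p = 0.728) and *Sln* (−0.64, adjusted p = 0.487) did not pass and *Stard10* was lower (−1.11). Of 7 trabecular and conduction markers, 2 were higher and 2 were lower, with sums of 317 to 420 CPM in NAE1CKO and 244 to 304 CPM in CTL. The pacemaker channel *Hcn4*, with 113 CPM in NAE1CKO and 14.5 CPM in CTL (log2 fold change 2.96), made up most of that difference, while *Cpne5* (−1.27) and *Etv1* (−0.52) were lower. The part of atrial, trabecular or conduction cells in the *Nppa* result was not tested.

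Some endocardial markers rose, as did *Npr3*, which mouse endocardium expresses. Of 7, 4 were higher (57.1%, against 18.6% of all genes tested) and 0 were lower. The sums were 337 to 366 CPM in NAE1CKO, against 187 to 239 CPM in CTL. *Plvap*, with 161 CPM in NAE1CKO and 70.3 CPM in CTL, made up most of that difference. *Plvap* (log2 fold change 1.20), *Cdh11* (0.63) and *Foxc1* (0.46) led those that rose. *Nfatc1*, the transcription factor that defines endocardium, had 0.17 (adjusted p = 0.171, edgeR). *Hapln1* (0.26, adjusted p = 0.410) and *Cytl1* (0.02, 0.959) did not pass either (edgeR). Of 8 general endothelial markers, 3 were higher and 1 was lower, with sums of 1205 to 1295 CPM in NAE1CKO and 1178 to 1249 CPM in CTL, and the part of endocardium or endothelium in the *Npr3* and *Nppc* results was not tested. All 7 macrophage markers were higher, with sums of 94.8 to 127 CPM in NAE1CKO, against 66.3 to 76.0 CPM in CTL. Of the 6 fibroblast markers 0 were higher and 3 were lower, of the 6 mural markers 1 was higher and 2 were lower, and the 5 erythroid markers did not pass. No marker of these cell types was at 0 in all libraries.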

How the data were processed

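The deposited table holds raw counts by Ensembl gene ID. Aligner and counter were STAR 2.0.4b and Subread's featureCounts 1.4.5, credited to the submitters' processing notes, which also name bcl2fastq. The build, the annotation and how strand was treated are not stated in the sources used here. The table has 41264 lines, of which 574 duplicate another line and were dropped. Groups came from the genotype labels. GENCODE M21 gave positions, exon lengths and overlaps, and 40340 genes matched it. Only 23947 genes had a count.

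The counts were analysed in R 4.3.3 with edgeR 4.0.16 (filterByExpr, TMM, robust quasi-likelihood test, Benjamini-Hochberg adjustment), and the scripts were tested on simulated data. DESeq2 1.42.0 and limma 3.58.1 (limma-voom) served as alternatives. Log2 CPM used a prior count of 2. Ratios were tested with scipy 1.17.1 by exact permutation. Replicates differed by a chi-square of 4.02 to 67.2 per gene, above sampling noise, so each library was kept as 1 sample. Pairs with WT-453-5 had 59.5 to 67.2, and all other pairs 4.02 to 16.5. P-values of edgeR weigh the difference of the groups against the spread between these hearts, and those of the permutation test compare it with other groupings of the libraries.

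1 gene that the naming rule takes is not reported here. The 7 genes, the lists and the markers were chosen with earlier results of these data known. By rule the text names the 7 genes, *Nae1*, up to 3 genes per direction of each list by adjusted p, the tested genes within 100 kb of the pair and the 5 genes most like each peptide gene. *Gm42418* and other list members named for their role were chosen after their values were seen. Alternatives were other scalings, filters and tests, the title number as a block, and leaving out each library. Those without *Gm42418* and within 1 title number were added after seeing the data.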

Additional observations from a re-analysis of the deposited data

Results flagged for a closer look

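One value stood apart within its group. *Corin* in KO-453-7 was 265 CPM, against 207 to 216 CPM in the other NAE1CKO libraries, a gap of 0.843 of the group's range, above Dixon's critical value for 4 samples. Chance flags about 1 in 20 such groups, and 22 groups were looked at. Without this library the log2 fold change of *Corin* was 0.40.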

How the results depend on the processing

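The calls of *Nppa*, *Nppb*, *Npr3* and *Corin* held under all alternatives run. When 1 library was left out their log2 fold changes were 1.65 to 1.99, 3.19 to 3.84, 0.56 to 0.73 and 0.40 to 0.54. *Nppc* was not called in the title-443 libraries alone (1.83, adjusted p = 0.0874, edgeR), gave 1.51 to 2.59 when 1 library was left out, and has no value under a filter of 1 CPM in 4 libraries. In the title-443 libraries 2 genes were called past 1.5-fold, against 4 in all libraries and 3 to 4 when 1 library was left out. *Npr2*, not called under any alternative, ran from −0.021 to 0.14 when 1 library was left out, was −0.021 without KO-453-7 and was −0.024 in the title-443 libraries. Leaving out 1 library gave log2 differences of 1.51 to 2.02 for the *Nppb* to *Nppa* ratio, 0.44 to 0.60 for *Npr3* to *Npr1*, −1.46 to −1.25 for *Corin* to *Nppa* and 2.04 to 2.32 for the *Nppa* and *Nppb* share, each with p = 0.0571 (exact permutation test), the smallest that 3 against 4 libraries allow. Same-numbered libraries of the groups deviated together in 3 of 8 pairs (correlations from −0.0658 to 0.301, over 0.1 in these 3). Pairs with unlike numbers had correlations from −0.222 to 0.128, all negative except KO-453-7 with WT-443-7. Same-numbered pairs thus leaned higher, but the ranges overlap, and the title numbers were not shown to pair the libraries. With the title number as a replicate block *Nppb* was 3.49, *Nppa* 1.85 and *Corin* 0.49, and no call of the 7 genes changed. Under the block 13 load-responsive genes were higher, against 11 without it, and 7 regulators were lower, against 6. Depth limits *Nppc*, with 0 to 8 counts in CTL libraries.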
